A study of Xenopus tropicalis with 18 samples.

Results

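Coccyx tissue of stage 61 was compared with coccyx tissue of stages 56 and 58 in wild-type (WT) Xenopus tropicalis tadpoles. The members are the samples labelled coccyx at these 3 stages, 6 of the 18 libraries of the series. These were replicates 1 and 2 of stage 61, replicate 1 of stage 56 and replicate 2 of stage 58, which share a table format with a header, and replicate 3 of stages 61 and 56, which have no header. In the tables with a header, stages 56 and 58 have 1 coccyx library each and were pooled as the early group, called the early libraries. Replicate 3 was described only within its own tables. The groups share genotype, tissue, laser capture from frozen sections and amplification of the complementary DNA by PCR, and nothing else about the animals is given in the labels. Whether replicates are different animals is not in the labels, so the spread among replicates behind a p-value here may be technical only. In the early group that spread also includes the difference between stages 56 and 58.

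The coccyx is the dorsal part of the urostyle, a bony rod at the hind end of the frog spine, and the hypochord is its ventral part. Both are built at metamorphosis, when thyroid hormone drives the loss of the larval tail and the remodelling of the trunk. Stage 61 falls later in metamorphosis than stages 56 and 58, and the comparison asks which genes differ in coccyx between these times. Axial skeleton forms in general through cartilage that is later replaced or enclosed by bone. The files give Ensembl identifiers without gene names, and 0 of them were found in the RefSeq gene table of 28858 genes given with the data. The tissue label could therefore not be checked against markers of cartilage, bone or neighbouring tissues, no gene is given a role here, and 4 genes are given by identifier.

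The 4 coccyx libraries with a header listed 19921 genes and held 4191168 (stage 56), 5741962 (stage 58), 5041040 (stage 61 replicate 1) and 7215011 counts (stage 61 replicate 2). Replicate 2 of stage 61 stood apart in composition. Its 10 most abundant genes took 31.5% of the counts, against 14.9% to 18.9% in the other 3 libraries. Its effective number of genes (e raised to the Shannon entropy of its counts) was 415, against 1092 to 1296. It was also closer to the hypochord library of the same stage and replicate number (Spearman's rho 0.906, computed over 10672 genes that are no independent replicates) than to replicate 1 of its own group (0.803). The stage 56 library had the lowest rank correlations with the others. Its rho was 0.744 with the stage 58 library. With the stage 61 libraries it was 0.782 and 0.792, close to the 0.803 between those libraries. The stage 58 library had 0.855 and 0.826 with the stage 61 libraries. The replicates of stage 65 coccyx had a rho of 0.932 over the same genes.

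Fewer genes were detected in both stage 61 libraries than in both early ones at equal totals, but the groups overlapped with another scaling. At an equal total of 4191168 counts, the stage 56 library had 13397 genes with at least 1 count and the stage 58 library had 13647. The stage 61 libraries had 13115 and 13084 genes, so the groups did not overlap at that total, and the ratio of the means was 0.969. Equal totals left the bulk of genes at unequal depth, since the TMM factors were 1.22 and 1.11 early and 1.06 and 0.697 at stage 61. With the product of total and TMM factor made equal instead, an alternative chosen after seeing the data, the libraries had 13387 and 13714 genes early and 13207 and 13575 at stage 61. The groups then overlapped, with a ratio of 0.988. For the equal totals, with 2 libraries against 2, an exact permutation test, two-sided, cannot go below the p of 0.333 that it gave. Replicate 3 had the opposite order, with 12582 genes at stage 56 and 14351 at stage 61 at an equal total of 11186152 counts. For replicate 3 only equal totals were used.

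The early libraries differed from each other in more genes than either differed from the stage 61 libraries. Values were taken as CPM, a gene's counts per 1 M counts of its library, scaled by TMM factors that equalise the bulk of genes between libraries, and a ratio was formed after adding 2 CPM. Among the 8071 genes with at least 8 CPM in 1 of the early libraries, 1231 (15.3%) differed by 4-fold or more between stages 56 and 58. Between the replicates of stage 61 the number was 804 of 7739 (10.4%). Of the pairs that cross the comparison, stage 61 replicate 1 and stage 56 differed in 937 genes (11.8%), and stage 61 replicate 2 and stage 56 in 788 (9.93%). Stage 61 replicate 1 and stage 58 differed in 414 genes (5.41%), the smallest of the 6 numbers, and stage 61 replicate 2 and stage 58 in 626 (8.10%). The spread within the groups was thus as wide as the distance between them, and the stage 58 library lay nearer to stage 61 than to stage 56. The direction of single pairs depended on the scaling: with total counts alone, stage 61 replicate 2 had 99 genes higher and 738 lower than stage 58, against 226 higher and 400 lower with TMM factors. The median log2 ratio of that pair over the tested genes was -0.52 with total counts and 0.02 with TMM factors.

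**Figure D1:**
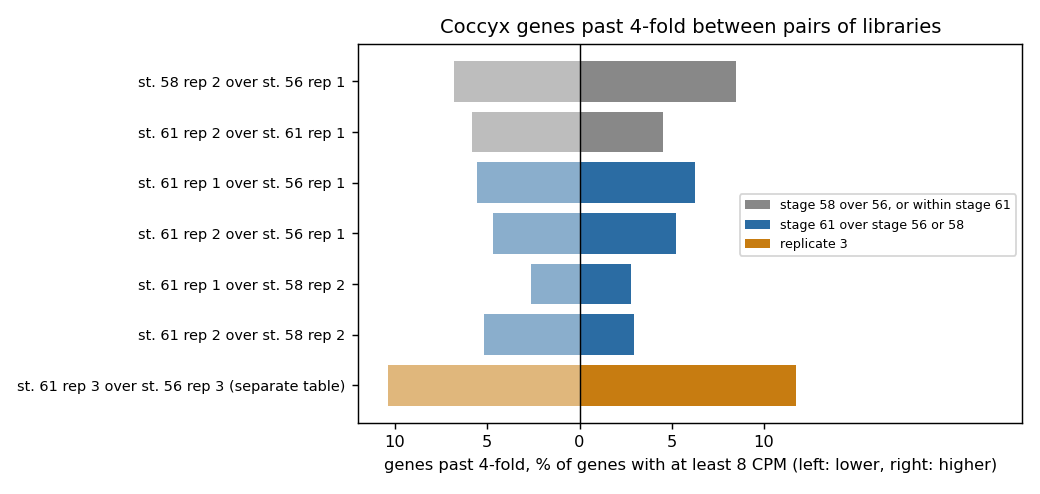
Percent of coccyx genes that differed by 4-fold or more between 2 libraries, among genes with at least 8 CPM in 1 of them (TMM-scaled, 2 CPM added). Bars to the right count genes higher in the library named first and bars to the left those lower. The pair of stages 58 and 56 (grey, 15.3% in all) exceeds each of the 4 blue pairs that cross the comparison (5.41% to 11.8%), and the replicate 3 pair (orange, 22.1%) comes from a separate table.

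The spread within groups was also wide for abundant genes, where counting error is small. In the 956 tested genes with a mean log2 CPM of 7 or more, the log2 ratio of stages 58 and 56, which also differ in stage, had an SD of 1.75, and that of the stage 61 replicates had an SD of 1.70. Counting error alone gives an SD of 0.07 for either ratio. In the 3290 genes with a mean log2 CPM below 3 the SDs were 0.97 and 0.97, with counting parts of 0.27 and 0.28. The added 2 CPM narrows the ratios of scarce genes, so SDs of scarce and abundant genes are not directly comparable. The difference between the group means had an SD of 0.87 in the abundant genes and 0.59 in the scarce ones. Each group mean averages 2 libraries, which narrows the spread, so these SDs are not directly comparable with those of single-library ratios. Per gene, the library farthest from the mean of the other 3 was stage 56 for 3691 of 10672 genes (34.6%), stage 61 replicate 1 for 2486, stage 58 for 2360 and stage 61 replicate 2 for 2135.

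No gene passed the test of stage 61 against stages 56 and 58. Of 10672 genes, edgeR's quasi-likelihood test with Benjamini-Hochberg adjustment called 0 (0%) at the 0.05 threshold, with 216 genes (2.02%) at an unadjusted p under 0.05, 95 higher (0.89%) and 121 lower (1.13%) at stage 61. The common biological coefficient of variation was 0.655 with 2 residual degrees of freedom. The spread behind it includes the difference between stages 56 and 58, which were pooled. The log2 changes were centred on -0.05, 5% of genes lay below -1.51 and 5% above 1.33, and 408 genes (3.82%) had a fitted change of 4-fold or more in either direction. The median 95% interval of a gene's log2 change reached 2 to each side. That interval is unadjusted, and the threshold adjusted over 10672 genes asks for more than it. In laser-captured tissue, fewer cells of a type and less RNA per cell cannot be told apart.

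The count of calls depended on the method. DESeq2 called 7 genes, 3 higher and 4 lower at stage 61, and edgeR without a filter on low counts called 21 of 15330, 9 higher and 12 lower, among them all 7 of DESeq2. limma voom called 0. Without replicate 1 of stage 61 edgeR called 12 genes, 3 higher and 9 lower, and without replicate 2 of stage 61 it called 3, each higher. Without the stage 56 or the stage 58 library it called 0, and 250 and 757 genes had an unadjusted p under 0.05. In each of these leave-out fits the lone library was assumed to vary like the other group.

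**Figure D2:**
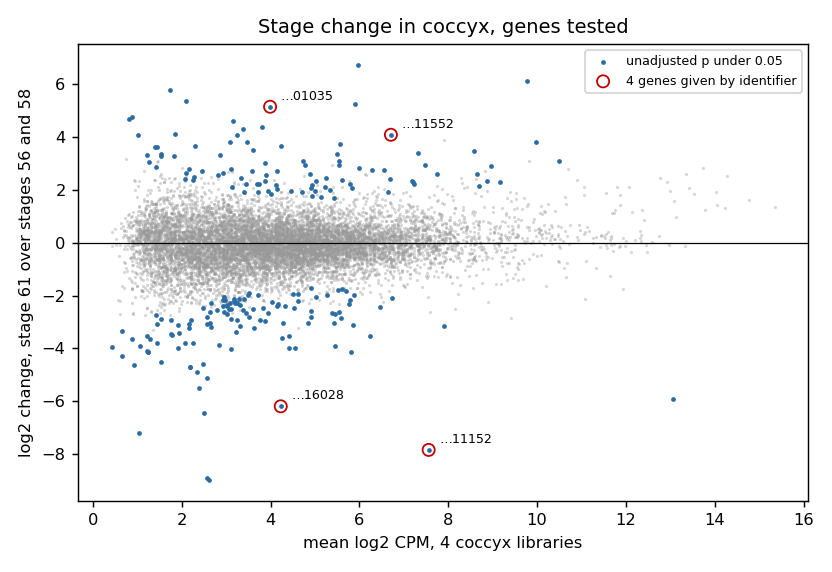
Fitted log2 change of stage 61 over stages 56 and 58 (vertical) against the mean log2 CPM (horizontal) for the 10672 tested coccyx genes. Blue points are the 216 genes with an unadjusted p under 0.05, and red circles are the 4 genes given by identifier, labelled by their last digits. The cloud is centred near 0 (median -0.05), and no gene passed the adjusted threshold.

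By the rule for genes given by identifier, ENSXETG00000011152 and ENSXETG00000016028 had the smallest unadjusted p among non-overlapping genes lower at stage 61 whose mean log2 CPM reached 3. Both missed the threshold in edgeR. The tested coccyx libraries chose the genes given by identifier, so their folds and intervals here and below are a description. ENSXETG00000011152 was an abundant transcript of early coccyx that was nearly absent afterwards. It had 256 CPM at stage 56 (1332 counts) and 510 CPM at stage 58 (3120 counts). At stage 61 it had 3.10 CPM (17 counts) in replicate 1 and 0 counts in replicate 2. Both stage 65 coccyx libraries had 0 counts. The hypochord libraries had 2 counts at stage 56, 0 at stage 58, 0 and 1 at stage 61, and 0 and 1 at stage 65, so counts above this trace level were seen in coccyx and chiefly in the early libraries. Over the pooled counts, scaled by library totals without TMM factors, the gene was 323-fold higher in the early libraries (95% counting interval 202 to 555, counting error only). Its edgeR log2 change was -7.84 ± 1.60 (SE, 95% interval -11.38 to -4.31), with an adjusted p of 1 (range over 12 alternatives 4.63e-09 to 1). It was called by DESeq2, by edgeR without the filter and by edgeR without replicate 1 of stage 61, where the log2 change was -14.01.

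ENSXETG00000016028 showed the same order of libraries at a lower level. It had 35.4 CPM at stage 56 (184 counts) and 38.5 CPM at stage 58 (235 counts), which makes the early libraries nearly equal. Stage 61 had 0.913 CPM (5 counts) in replicate 1 and 0 counts in replicate 2, and stage 65 coccyx had 0 counts and 15 counts (3.29 CPM). None of the 6 hypochord libraries with a header held a count of it. The pooled counts, scaled by library totals without TMM factors, were 103-fold higher in the early libraries (95% counting interval 44.0 to 320, counting error only). Its edgeR log2 change was -6.19 ± 1.21 (SE, 95% interval -8.87 to -3.50), with an adjusted p of 1 (range over 12 alternatives 0.000127 to 1). The same 3 settings called it, and without replicate 1 of stage 61 its log2 change was -10.64.

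ENSXETG00000011552 and ENSXETG00000001035 were the corresponding genes higher at stage 61, and neither passed the threshold in edgeR. ENSXETG00000011552 had 7.90 CPM at stage 56 (41 counts) and 15.9 CPM at stage 58 (97 counts). At stage 61 it had 104 CPM (571 counts) and 277 CPM (1449 counts), and at stage 65 it had 189 and 139 CPM, so all 4 later coccyx libraries lay above both early ones. In hypochord it varied without such an order, although each stage 61 library exceeded the early one of its replicate number. The gene had 0.379 CPM at stage 56, 73.5 at stage 58, 13.8 and 292 at stage 61, and 41.2 and 1.60 at stage 65. Its edgeR log2 change in coccyx was 4.09 ± 0.95 (SE, 95% interval 2 to 6.17), with an adjusted p of 1 (range over 13 alternatives 0.00384 to 1). DESeq2 and edgeR without the filter called it.

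ENSXETG00000001035 was scarce in early coccyx, with 1 count at stage 56 (0.193 CPM) and 9 counts at stage 58 (1.47 CPM). Stage 61 had 41 counts (7.49 CPM) in replicate 1 and 265 counts (50.7 CPM) in replicate 2, and stage 65 had 27 and 15 counts (5.43 and 3.29 CPM). The stage 61 libraries were the highest of the 6, but the lower of them was close to the stage 65 libraries. In hypochord it had 0 and 1 count at stages 56 and 58, 20 and 103 counts at stage 61, and 6 and 0 counts at stage 65. Its edgeR log2 change in coccyx was 5.15 ± 1.27 (SE, 95% interval 2.35 to 7.96), with an adjusted p of 1 (range over 12 alternatives 0.0035 to 1). Leaving out stage 61 replicate 2, which held most of its counts, gave a log2 change of 3.22, without stage 58 it was 7.12, and edgeR without replicate 1 of stage 61 called it, as did DESeq2 and edgeR without the filter.

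**Figure D3:**
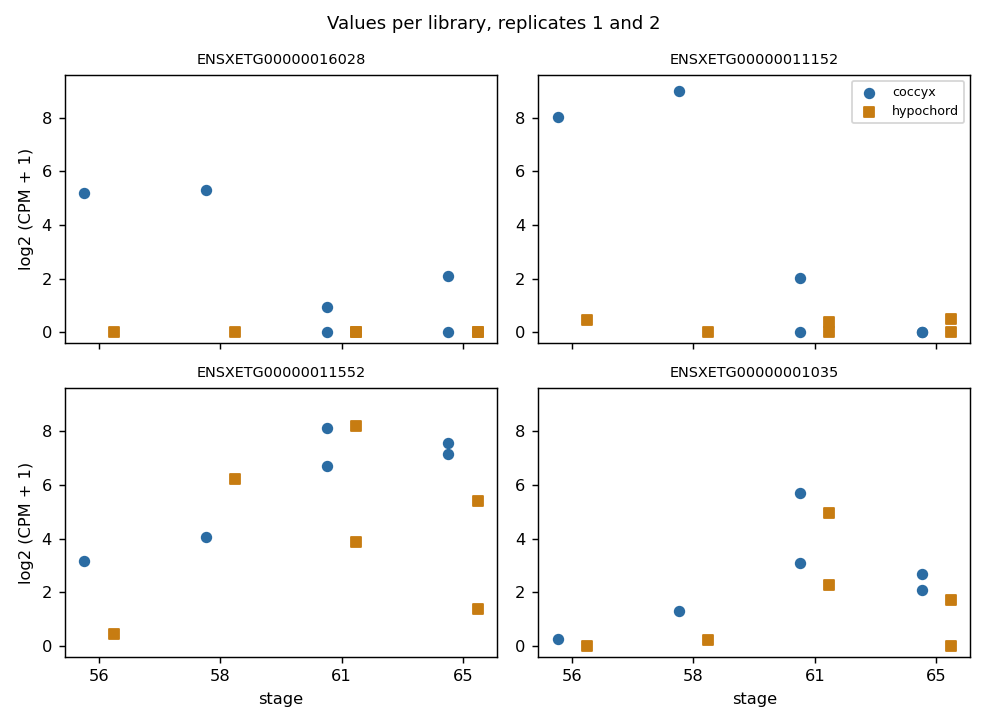
Values per library as log2 (CPM + 1), TMM-scaled over 12 libraries, of the 4 genes given by identifier, by stage, with circles for coccyx and squares for hypochord (each symbol is 1 library). The upper genes are high in coccyx at stages 56 and 58 and at or near 0 in hypochord throughout, and the lower genes are higher in both stage 61 coccyx libraries than in both early ones.

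With TMM factors, genes whose groups did not overlap were about as many in one direction as in the other. Of the 10672 tested genes, both stage 61 libraries lay above both early libraries in 1273 (11.9%) and below them in 1339 (12.5%). A gap of 2-fold or more between the nearest libraries of the groups was seen in 77 genes higher at stage 61 (0.722%) and 64 genes lower (0.6%). A gap of 4-fold or more was seen in 5 higher (0.0469%) and 6 lower (0.0562%). This balance held with TMM factors and with DESeq2 size factors (78 higher and 61 lower by 2-fold or more). Both scalings equalise the bulk of genes between libraries, so the balance is partly set by the scaling. With total counts alone the median log2 difference between the groups moved from -0.01 to -0.36. Then 449 genes were higher and 2659 lower without a gap, and 30 were higher and 191 lower by 2-fold or more. Without a gap, any gene with 4 unequal values separates 2 libraries from the other 2 in a single split, whichever that is. For libraries in random order the expected share of this split is 0.333 over both directions together. The shares here, 11.9% and 12.5%, together lie below it. Whether the numbers with a gap exceed those of another split of the libraries was not tested.

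The 77 genes with the gap upwards had a median of 5.20 CPM at stage 56, 5.89 at stage 58, and 24.7 and 27.1 at stage 61. These values chose the genes and are a description. In the stage 65 libraries, which the choice did not use, their medians were 17.1 and 14.5 CPM. The median of all tested genes was 13.9 and 14.9 CPM there. In hypochord the medians of the 77 genes were 8.91 and 1.08 CPM at stages 56 and 58 and 25.5 and 21.7 CPM at stage 61, and 65 of the 75 counted there had a higher mean at stage 61 (86.7%, against 68.4% of all tested genes counted in hypochord). The 64 genes with the gap downwards had medians of 12.1 and 13.5 CPM in the early libraries, 1.83 and 1.72 at stage 61, and 3.52 and 5.6 at stage 65. In hypochord, 12 of the 64 had no counts at stages 56 to 61, against 350 of all 10672 tested genes. The 64 genes were also scarcer, with a median of mean coccyx CPM of 7.40 against 15.8 for all tested genes. Of the other 52, 30 had a higher mean at stage 61 in hypochord (57.7%). Neither list was tested, since both were chosen on these libraries. Of the stage 61 coccyx libraries used in the choice, replicate 2 had a Spearman's rho of 0.906 with the hypochord library of its stage and number. The hypochord values may therefore not be a separate check.

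Genes counted in only one of the groups were rare. With at least 10 counts in both libraries of one group and none in the other, 0 of 19921 listed genes were seen at stage 61 alone (0%) and 2 in the early libraries alone (0.01%). The first of these 2 genes had 20 and 116 counts in early coccyx, 0 and 1 at stage 65, and 1 count in the 4 hypochord libraries of stages 56 to 61. The second had 49 and 86 counts in early coccyx and 3 and 2 at stage 65, and it was also counted in early hypochord, with 63 counts at stage 56 and 38 at stage 58 against 3 and 0 at stage 61. DESeq2 called both. Without the stage 58 library the numbers were 40 at stage 61 alone and 51 in the early library alone, without stage 56 they were 4 and 21, without replicate 1 of stage 61 they were 13 and 46, and without replicate 2 they were 10 and 39. A limit of 5 counts gave 6 genes at stage 61 alone and 16 in the early libraries alone, and 11 of those 16 had no counts in the 4 hypochord libraries. The corresponding share over all listed genes was not determined.

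The most abundant genes of early coccyx mostly stayed among the most abundant at stage 61. Of the 100 genes with the highest mean CPM in the early libraries, 81 were also in the 100 highest of stage 61, and 49 genes were in the list of 100 of each of the 4 libraries. Stages 56 and 58 shared 54 of their 100 and the stage 61 replicates shared 71, while pairs across the comparison shared 63 to 71. The early 100 took 41.7% and 43.8% of the counts of the early libraries, 42.8% of stage 61 replicate 1 and 61.5% of stage 61 replicate 2. Of them, 65 had a positive and 35 a negative log2 change (median 0.19, against -0.05 over all tested genes). In edgeR 1 of the 100 had an unadjusted p under 0.05, against 2.02% of all tested genes.

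Among the 256 tested genes whose mean log2 CPM reached 9, a limit set after seeing the values, 5 had an unadjusted p under 0.05 in edgeR, each with an adjusted p of 1. Over all 10672 tested genes the number was 216 (2.02%), a similar share. Single libraries carried most of the difference in all but the steadiest of the 5 genes, which is described below. The most abundant of the 5 had 34230 CPM at stage 58, where it was the top gene of the library with 209220 counts, but 667 CPM at stage 56, 534 and 7.45 CPM at stage 61 and 20.1 and 391 CPM at stage 65. It had 3.60 to 8.22 CPM in the 4 hypochord libraries. Its log2 change was -5.91 ± 2.30 (SE), and stage 56 and stage 61 replicate 1 were nearly level. Another had 3338 CPM in replicate 2 of stage 61 and 2.74 CPM in replicate 1, with 30.6 and 19 CPM in the early libraries, so its groups overlapped although its log2 change was 6.14 ± 2.22 (SE). In hypochord it had 3334 CPM in replicate 2 of stage 61 and 3.31 CPM in replicate 1.

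The steadiest of the 5 abundant genes had 158 and 232 CPM in the early libraries, 884 and 960 CPM at stage 61 and 249 and 241 CPM at stage 65. Its stage 61 libraries agreed closely and lay above all other coccyx libraries with a header. In hypochord it had 1029 and 729 CPM at stages 56 and 58 and 9184 and 2074 CPM at stage 61. Its log2 change in coccyx was 2.32 ± 0.95 (SE), with an unadjusted p of 0.0335 and an adjusted p of 1 in edgeR's quasi-likelihood test. The other 2 had 173 and 444 CPM early against 526 and 4431 CPM at stage 61, and 203 and 65.9 CPM early against 568 and 3067 CPM at stage 61. In both, replicate 2 was the high library. One further gene that DESeq2 called as higher rested on the other replicate, with 6 and 7 counts early, 1298 counts in replicate 1 of stage 61 and 19 in replicate 2, and it had 37173 counts in the hypochord library of stage 61 replicate 1 but 11 in that of replicate 2.

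Whether the stage change of coccyx differed from that of hypochord was tested as an interaction over 8 libraries, 4 of each tissue. edgeR's quasi-likelihood test called 0 of 11164 genes (0%), with a smallest adjusted p of 0.167 and 1937 genes (17.4%) at an unadjusted p under 0.05. Of these, 36 had the higher change in coccyx and 1901 the higher change in hypochord. The early hypochord libraries held no counts for 1413 of the 1937 (72.9%), against 22.8% of all tested genes. They detected 7243 and 7090 genes at the equal total of 4191168 counts, against 11490 and 11426 at stage 61 in hypochord. The part of this gap in the result was not tested. Over the 4166 tested genes with at least 10 counts in each hypochord library, 0 passed when adjusted over those genes, with 48 at an unadjusted p under 0.05, an alternative chosen after seeing the data.

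With limma voom, with DESeq2 size factors and with at least 10 counts in every library, 0 genes were called, with 1805, 1967 and 114 at an unadjusted p under 0.05. The interaction was called for 505 genes with all 12 libraries in the fit, 503 of them with the higher change in hypochord, and for 1179 by DESeq2, 1161 of them with the higher change in hypochord. Of these calls, 382 and 777 had no counts in the early hypochord libraries. Leaving out hypochord stage 56 gave 945 calls and leaving out hypochord stage 58 gave 665, while leaving out any of the other 6 libraries gave 0. For ENSXETG00000011152 the interaction was -7.25 ± 3.71 (SE, adjusted p = 0.386 in edgeR), for ENSXETG00000011552 it was 2.08 ± 2.57 (SE, adjusted p = 0.89), and for ENSXETG00000001035 it was -2.03 ± 2.40 (SE, adjusted p = 0.878). None was thus shown to change differently in coccyx. For ENSXETG00000016028, with no counts in hypochord, the interaction could not be estimated.

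In the 4166 genes counted in each hypochord library, the differences between group means had a narrower spread in coccyx than in hypochord. The log2 change had an SD of 0.62 in coccyx and 1.05 in hypochord. The group means differed by 2-fold or more in 362 genes in coccyx against 1331 in hypochord. These values include the spread among libraries within groups, and whether the stage change itself is narrower was not tested. Both tissues passed 2-fold in the same direction in 129 genes and in opposite directions in 24. The direction was the same in 2436 genes (58.5%), and the Pearson's r across these genes was 0.291 (Spearman's rho 0.273), a description over genes that share libraries and depth.

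**Figure D4:**
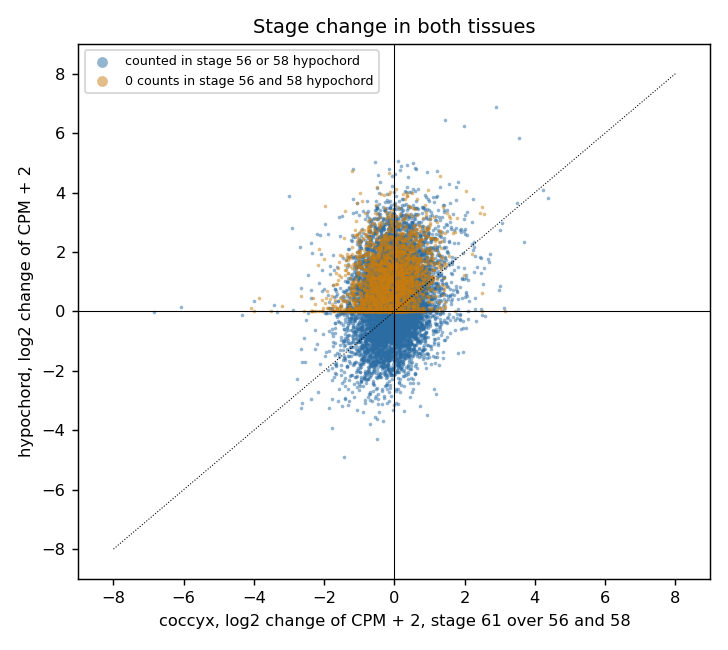
Log2 change of CPM + 2 from stages 56 and 58 to stage 61 in coccyx (horizontal) and hypochord (vertical) for the 11164 genes tested in both, 1 point per gene. Orange points are genes with 0 counts in both early hypochord libraries (22.8%), which can only lie at or above 0 on the vertical axis. The cloud is wider along the hypochord axis than along the coccyx axis.

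Replicate 3 has 1 coccyx library at each stage, so its values have no replicate check and no test. The libraries held 17125833 counts at stage 56 and 11186152 at stage 61, over 21458 listed genes. Its identifiers rise by 1 at each of 21457 steps, and over the 11315 identifiers shared with the other tables the values were unrelated (Spearman's rho 0.00754), so its genes were not matched to those above. Among 8063 genes with at least 8 CPM by total counts in 1 of the libraries, 1467 (18.2%) were higher and 430 (5.33%) lower by 4-fold or more at stage 61. The median log2 ratio was 0.57. With TMM factors (0.822 and 1.22) the median was -0.06, and 928 genes were higher and 818 lower. In all, 22.1% of genes were past 4-fold with TMM factors, against 5.41% to 15.3% in the 6 pairs of the shallower tables. The Spearman's rho between the replicate 3 libraries was 0.871. It covers other genes than the rhos of the pairs above and is not comparable with them.

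The genes past 4-fold in replicate 3 spanned the range of abundance. The 1467 higher genes had a median of 3.39 CPM at stage 56 and 39.4 CPM at stage 61, and 111 of them had no counts at stage 56. The 430 lower genes had a median of 74.7 CPM at stage 56 and 9.70 CPM at stage 61, and 13 of them had no counts at stage 61. The largest of these log2 ratios was 6.81 upwards and the highest level among the lower genes was 18700 CPM at stage 56. In the stage 65 coccyx library of replicate 3 the medians of the higher and lower genes were 23.3 and 16.8 CPM, against 25.5 CPM for all 8063. At a mean log2 CPM of 7 or more, 154 of 961 genes were higher and 106 lower, with a median log2 ratio of -0.10, while in the genes below 5 it was 0.76.

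By total counts, the hypochord libraries of replicate 3 shared the direction of the genes lower in coccyx more often than of those higher. Of the 430 lower genes, 380 were also lower in stage 61 hypochord than in stage 56 hypochord and 43 were higher, against 4039 lower and 3872 higher of all 8063. Of the 1467 higher genes, 885 were higher in hypochord and 480 lower. In hypochord the lower genes had a median of 70.9 CPM at stage 56 and 19.5 at stage 61, and the higher genes had medians of 3.29 and 4.58 CPM. These are values of single libraries, and the difference between the lists was not tested. Total counts left the coccyx pair at a median log2 ratio of 0.57, which favours entry to the higher list. With TMM factors the lists held 928 higher and 818 lower genes, and their directions in hypochord were not counted.

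Genes counted at one stage alone were common in replicate 3, where 1 library stands for each stage. With at least 10 counts in one library and none in the other, 1023 of 21458 genes were seen at stage 61 alone and 278 at stage 56 alone, although the stage 61 library was the shallower. Of the 1023, 627 also had at least 10 counts in the stage 65 coccyx library and 490 had none in the hypochord libraries of stages 56 and 61. Of the 278, 103 had at least 10 counts at stage 65. The corresponding shares over all listed genes were not determined. The 2 libraries shared 68 of their 100 most abundant genes.

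The last 37 rows of both kinds of table followed each other by position, with a Spearman's rho of 0.952 between the mean coccyx counts of the tables, a description across rows. They gave one measure across tables. Their share of the counts was 0.810% at stage 56, 2.64% at stage 58, and 1.83% and 1.32% at stage 61 in the tables with a header. In replicate 3 it was 0.511% at stage 56 and 2.32% at stage 61. Both stage 56 libraries thus lay below all stage 61 libraries, and the stage 58 library was the highest of the 6.

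**Figure D5:**
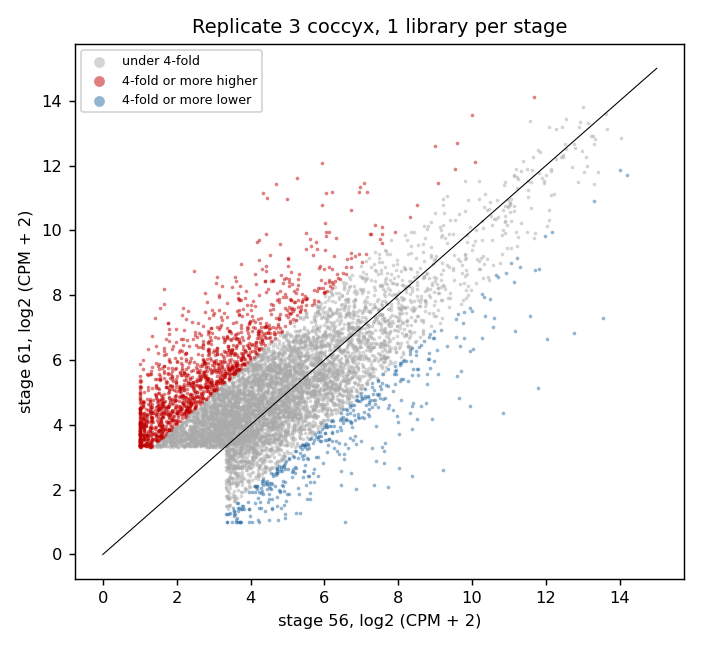
Replicate 3 coccyx, log2 (CPM + 2) by total counts at stage 61 (vertical) against stage 56 (horizontal) for 8063 genes with at least 8 CPM in 1 of the libraries, 1 library per stage. Red points are the 1467 genes higher and blue points the 430 genes lower by 4-fold or more, and the line marks equal values. Of the 1467 higher genes 931 had a mean log2 CPM below 5, as had 4808 of all 8063 genes. The median log2 ratio over all points is 0.57.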

How the data were processed

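The authors' deposited files hold whole-number counts per gene of 1 library each, not normalized. FastQC, cutadapt 1.8.1 and HTSeq 0.13.5 are named per the submitters' processing notes. Sources used here name no aligner, genome build, annotation or strand setting. Overlapping genes, antisense genes and near-identical copies thus have uncertain counts. The libraries carry no molecular identifiers, so intervals and floors cover counting error only. Samples were grouped by tissue and stage from the labels.

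The test of the 4 coccyx libraries with a header used their counts in edgeR 4.0.16 under R 4.3.3 (TMM, filterByExpr by group, robust quasi-likelihood fit, Benjamini-Hochberg over all genes tested, threshold 0.05). Total counts ran from 4191168 to 7215011, so that a floor of 3 counts is 0.416 to 0.716 CPM before TMM factors (0.697 to 1.22). CPM of single genes by library and medians of gene lists use TMM factors over 12 libraries (0.608 to 1.36). Standard errors are approximate, from the change and its test statistic. Replicate 3 was scaled by total counts with a prior of 2 CPM. Alternatives used DESeq2 1.42.0 and limma 3.58.1. The scripts were tested on simulated data, in 5 runs per test with changes planted in coccyx genes whose mean log2 CPM reached 3. The coccyx test called 3.0% of 4-fold, 59.3% of 16-fold and 98.1% of 64-fold changes. The interaction test called 0.297%, 2.32% and 21.4%, so its 0 calls do not exclude large differences. Before changes were planted, a simulated gene had the same mean level in all libraries of a test. In the data, by contrast, 22.8% of the genes in the interaction test had no counts in the early hypochord libraries. Unchanged genes called numbered 16 and 3 over the runs. The simulated spread followed the trend over abundance, not that of each gene, so the shares may not hold for genes with a wider spread. In the data, edgeR did not call ENSXETG00000011152 and ENSXETG00000016028, with log2 changes of -7.84 and -6.19. The 0 calls of the coccyx test thus do not exclude large changes either. The rule for named genes took the 2 largest rises and falls among called genes whose groups did not overlap and whose mean log2 CPM reached 3. As none passed, the smallest unadjusted p filled each place. Without gene names the planned marker and pathway lists could not be applied. Members and lists were chosen with earlier results of these data known.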

Additional observations from a re-analysis of the deposited data

Results flagged for a closer look

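The number of genes detected moved in opposite directions in the tissues of replicates 1 and 2. At an equal total of 4191168 counts the mean of stage 61 minus the mean of stages 56 and 58 was -422 genes in coccyx, where both stage 61 libraries lay below both early ones, and 4292 genes in hypochord, where both lay above. With equal products of total and TMM factor the coccyx groups overlapped (13387 and 13714 genes early, 13207 and 13575 at stage 61). The difference between the tissues was not tested. In replicate 3 coccyx, the stage 61 library had more genes than the stage 56 library (14351 and 12582).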

How the results depend on the processing

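The coccyx test has 2 libraries a group, and the effect of depth on its calls was not tested. Against 0 genes in the edgeR test, the count was 21 without a filter on low counts and 7 with DESeq2, and 0 to 12 when 1 library was left out. It was 0 with DESeq2 size factors, total counts, the strict filter, limma voom, 6 or 12 libraries in the fit. The replicate numbers are shared without a stated meaning: the deviations of same-numbered libraries had r = -0.0718 across 10672 genes. Between the tissues at stage 61, same-numbered libraries had a Spearman's rho of 0.906 for replicate 2 and 0.774 for replicate 1. The replicate block gave 0 calls in coccyx and 0 for the interaction. The interaction, 0 in the edgeR test, gave 505 with 12 libraries, 1179 with DESeq2, and 0 to 945 when 1 library was left out, but 0 with limma voom, DESeq2 size factors and at least 10 counts in every library; the cause was not tested. Genes at stage 61 alone numbered 6 with a limit of 5 counts and 4 to 40 when 1 library was left out, and genes in the early libraries alone 16 and 21 to 51, which fewer libraries allow by construction. The ratio of genes detected, 0.969, was 0.961 at a lower equal total, 0.939 with a limit of 5 counts, and 0.988, with overlapping groups, at equal products of total and TMM factor. In replicate 3 the genes higher and lower by 4-fold, 1467 and 430, were 904 and 280 with a prior of 5 CPM, 928 and 818 with TMM factors, 518 and 98 at 8-fold, and 3159 and 1357 at 2-fold, and the higher genes were 848 with at least 32 CPM.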
